A study of Mus musculus with 6 samples.

Results

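The genes described here are 10 transcription factor genes of the circadian clock: Clock and Npas2, which activate it, the nuclear receptor genes Nr1d1, Nr1d2, Rora and Rorb, and the bZIP genes Dbp, Tef, Hlf and Nfil3. They were chosen by symbol as the activating and output arms of the clock, out of 32066 features in the deposited table, and all 10 were found there and passed the filter on low counts. RNA came from the hippocampus of wild type female C57BL/6J mice aged 17 weeks, all of them without ovaries. The OVX group, 3 libraries, ate a control diet. The OVX+RJ group, also 3 libraries, ate from 8 weeks of age a diet with 1% royal jelly, the secretion with which worker honeybees feed their larvae. The labels call each library a biological replicate and do not give the hour at which tissue was taken, which matters for genes that cycle over the day. They name a 12-h light-dark cycle. Each library held between 34718592.5 and 58163779 counts, OVX 2 being the deepest, and levels are given as CPM, counts per 1000000 counts over all rows of the table.

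The molecular clock is a feedback loop. CLOCK, or its forebrain paralog NPAS2, pairs with BMAL1 and binds E-boxes to drive the Per and Cry repressor genes, the REV-ERB genes Nr1d1 and Nr1d2, and the output genes Dbp, Tef and Hlf. REV-ERB proteins repress and ROR proteins activate through a shared element, among others at the Bmal1 gene. DBP, TEF and HLF, the PAR bZIP family (named for a region rich in proline and acidic residues), activate through D-boxes, and NFIL3, also called E4BP4, represses through the same site. The hippocampus carries such a clock, and mice that lack Dbp, Tef and Hlf together are prone to seizures.

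Cell type markers were read beside the tissue label. Summed levels ran from 767 to 879 CPM for 8 CA1 markers and from 863 to 1011 CPM for the 7 of 8 CA3 markers that were found. They ran from 520 to 794 CPM for 10 dentate granule cell markers, and no marker found was at 0 in every library. Sums were also above 0 for neocortical markers, 156 to 203 CPM, and thalamic markers, 101 to 123 CPM. Such sums cannot tell hippocampus from an admixture of neighbouring tissue. Log2 fold changes were all of 1 sign in 5 of the 12 marker lists, with no gene of them called: negative for 10 of 10 dentate and 5 of 5 red blood cell markers, and positive for 8 of 8 oligodendrocyte, 7 of 7 CA3 and 6 of 6 tested choroid plexus markers. Their part in the values below was not tested. OVX+RJ 1 stood apart from the rest, with a mean correlation across genes of 0.983 with the other 5 libraries against 0.986 to 0.987 for each of those. Main values that rest on it are given with and without it.

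The royal jelly diet went with no called difference in any of the 10 genes. edgeR's quasi-likelihood test on all 18629 features that passed the filter called 0 of 10 members at an adjusted p under 0.05, with 0% of all features called. The lowest adjusted p among the members was 0.986. At an unadjusted p under 0.05 there was 1 member, Nfil3, with a higher mean in OVX+RJ, where 4.05% of all features lay under that limit in either direction and 2.14% with a higher mean. The groups did not overlap at 2 members, Nfil3 and Rora, both with higher values in OVX+RJ, where 10.5% of all features did not overlap and 4.53% were apart in that direction. Log2 fold changes of the 10 had a median of 0.059 and 8 were positive, against a median of -0.0015 and 49.6% positive over all tested features. Without OVX+RJ 1 the median was 0.026 with 6 of 10 positive, and without OVX 2 it was 0.027, also with 6 positive. In bulk tissue a lower level can mean fewer cells of a type or less RNA per cell, and these cannot be told apart.

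**Figure D1:**
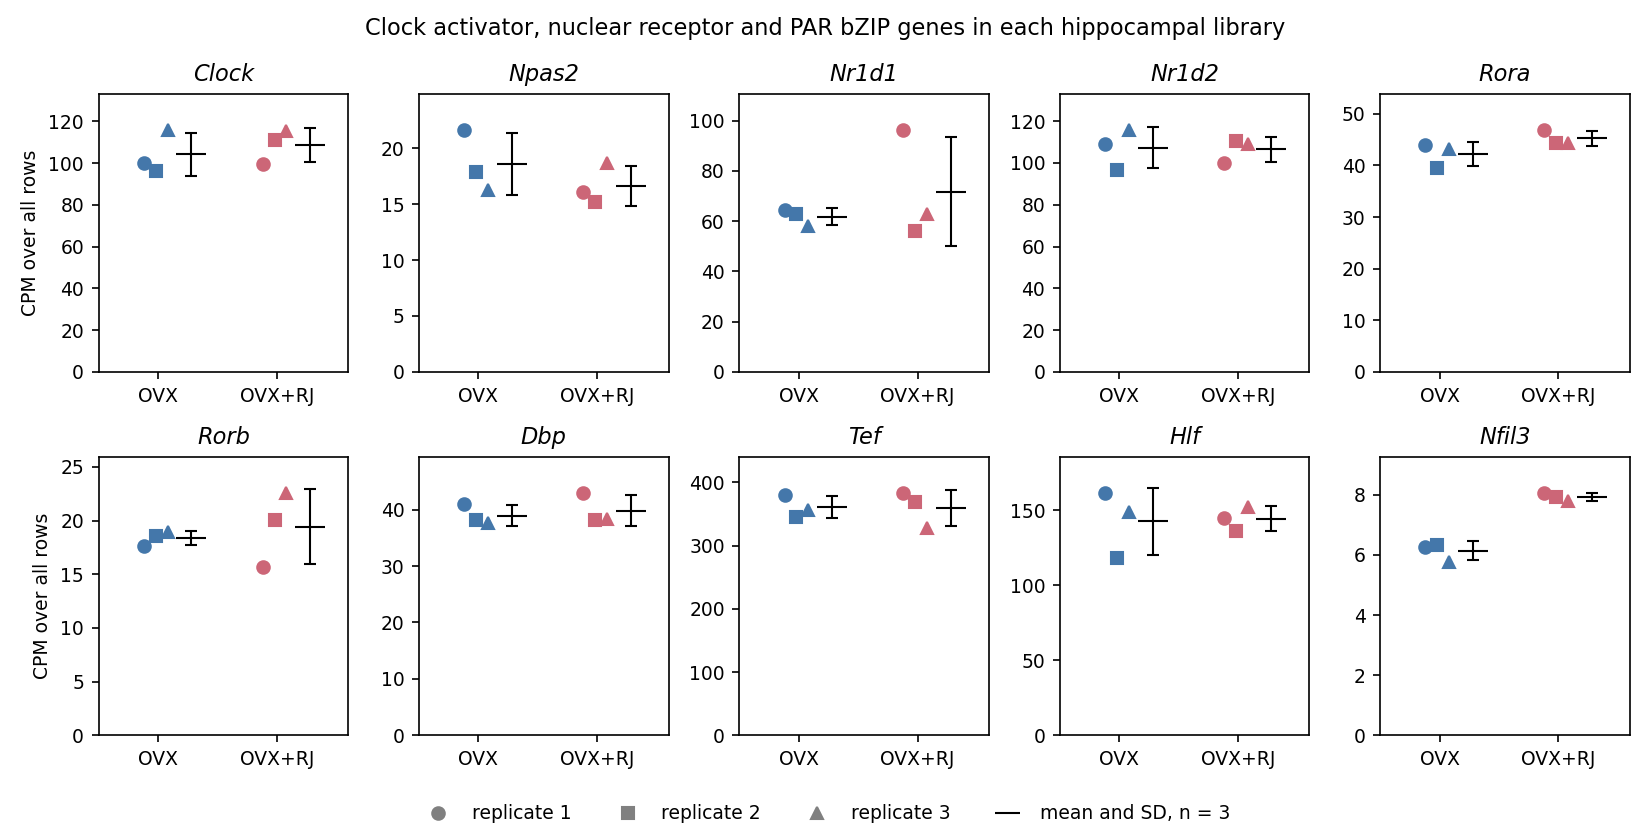
CPM over all rows of the 10 genes in each library, with the axis starting at 0 in every panel. Points are libraries (circle, square and triangle for replicates 1, 2 and 3), and the black bar is the group mean with its SD (n = 3). Nfil3 is the gene whose groups are clearly apart, from 5.77 to 6.34 CPM in OVX and from 7.79 to 8.06 CPM in OVX+RJ, and Nr1d1 has 1 library, OVX+RJ 1, far above the other 5.

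Nfil3, the repressor that competes with DBP, TEF and HLF for D-boxes, had the largest fold change of the 10. OVX 1, 2 and 3 gave 6.28, 6.34 and 5.77 CPM, and OVX+RJ 1, 2 and 3 gave 8.06, 7.93 and 7.79 CPM. Every OVX+RJ library thus lay above every OVX library, and OVX+RJ 1 did not stand out from its group. The mean was 6.13 ± 0.316 CPM for OVX and 7.92 ± 0.134 CPM for OVX+RJ (SD, n = 3 each). On the log2 scale this is a fold change of 0.38 (SE 0.13), with a 95% interval from 0.089 to 0.67. The interval is limma's and is not adjusted for the number of genes. The quasi-likelihood test of edgeR gave it an unadjusted p of 0.0171, which ranked 227 among 18629, and an adjusted p of 0.986, so the difference was not called.

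The counts behind Nfil3 were the fewest of the 10 genes. The OVX libraries held 218, 369 and 235 of them, and the OVX+RJ libraries 310, 312 and 281. Counting error alone then gives a coefficient of variation between 5.21% and 6.77% per library. The spread was 5.155% in OVX and 1.69% in OVX+RJ, both under what counting gives. Counts this low thus cannot resolve the spread between the 3 libraries of either group. Its log2 fold change was between 0.34 and 0.41 whichever library was left out, and 0.36 without OVX+RJ 1.

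The bases before the start of Nfil3 are shown because it is the member at which the groups were apart by most. Sequences are those of RefSeq on GRCm38.p6, an older build than the GRCm39 named by the submitters, and cover the 250 bases before an annotated start. All 10 members matched, with 14 windows in all. Capitals mark a match to the core of a ROR element, TAGGTCA or TGGGTCA on either strand, and here it is TGACCTA, read on the opposite strand, from 12 to 6 bases before the start. The window is chr13:52981040-52981289 on the minus strand.
Nfil3: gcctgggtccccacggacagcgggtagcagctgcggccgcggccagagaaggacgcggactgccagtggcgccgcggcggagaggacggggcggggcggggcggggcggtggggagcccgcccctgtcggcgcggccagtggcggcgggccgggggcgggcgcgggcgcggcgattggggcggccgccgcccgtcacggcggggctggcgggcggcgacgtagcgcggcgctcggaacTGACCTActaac
Either form of the core occurs in 5.38% of the 32851 such windows of all genes, and Nfil3 was the single member with a match. A match describes letters only.

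Neither activator gene was called, and the groups overlapped at both. Clock encodes the DNA-binding partner of BMAL1. The OVX libraries gave 100.1, 96.4 and 116 CPM, and the OVX+RJ libraries 99.7, 111 and 115 CPM. The groups overlapped over nearly their whole range. Clock was at a log2 fold change of 0.072 (SE 0.081), with a 95% interval from -0.10 to 0.25. Left-out libraries moved it between 0.021, without OVX 2, and 0.16, without OVX 3.

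Npas2, the Clock paralog that is prominent in forebrain, gave 21.6, 17.9 and 16.2 CPM in the OVX libraries, and 16.1, 15.2 and 18.7 CPM with royal jelly. OVX 1 held the highest value and OVX+RJ 2 the lowest, and the groups overlapped. Between groups Npas2 differed by -0.15 on the log2 scale (SE 0.13), with a 95% interval from -0.42 to 0.13. It was -0.030 without OVX 1 and between -0.23 and -0.078 without any other library. Npas2 was the member with the largest negative fold change, and its unadjusted p was 0.274 by the edgeR test. Bmal1, which encodes the common partner of both and is listed under its older symbol Arntl, had 24.0, 26.1 and 25.8 CPM under the control diet and 26.7, 25.9 and 26.1 CPM under royal jelly, with overlapping groups and a log2 fold change of 0.059 (SE 0.085).

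Nr1d1, which encodes the repressor REV-ERB alpha, had the widest spread of the 10 genes within OVX+RJ relative to its mean, a coefficient of variation of 29.97%. The OVX libraries gave 64.4, 62.9 and 58.2 CPM, close together, and the OVX+RJ libraries gave 96.4, 56.3 and 62.8 CPM. Only OVX+RJ 1 lay above the OVX range. OVX+RJ 2 was the lowest of all 6, and OVX+RJ 3 was within the OVX range. Means were 61.8 ± 3.24 CPM for OVX and 71.8 ± 21.5 CPM for OVX+RJ, and the log2 fold change of 0.23 (SE 0.16) had a 95% interval from -0.17 to 0.55. Without OVX+RJ 1 the log2 fold change was -0.054, and without OVX+RJ 2 it was 0.39, with an unadjusted p of 0.0268 and an adjusted p of 0.823 by edgeR. Over the 16 alternatives tried, its adjusted p ran from 0.823 to 0.999. The SD of log2 CPM within OVX+RJ was 0.43, larger than for 83.7% of tested features, while within OVX it was 0.071, larger than for 25.1%.

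Nr1d1 shares exon sequence with Thra, the thyroid hormone receptor alpha gene on the opposite strand, over 263 bases of the GENCODE M21 annotation. Thra was far more abundant, with 848, 859 and 784 CPM for OVX 1, 2 and 3 and 839.8, 783.5 and 782 CPM for OVX+RJ 1, 2 and 3. The Thra level of OVX+RJ 1 lay within the OVX range, and the ratio of Nr1d1 to Thra was 0.115 there against 0.0718 to 0.0803 in the other 5 libraries. Reads of the shared bases could count for either gene, because no source used here states how strand was handled in the counting.

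Nr1d2, which encodes REV-ERB beta, did not share that pattern. Its OVX libraries gave 109, 96.7 and 116 CPM, and its OVX+RJ libraries 99.8, 110.5 and 109 CPM. OVX+RJ 1 was among the lower values, and the OVX libraries spanned those of OVX+RJ. Its log2 fold change was -0.00025 (SE 0.075), with a 95% interval from -0.16 to 0.17, and its sign changed with the scaling, so no direction is given. Left-out libraries gave values between -0.068 and 0.065.

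The window before Nr1d1 is shown beside that of Nfil3 because OVX+RJ 1 differed from the rest by more at Nr1d1 than at any other member. It is chr11:98775378-98775627 on the minus strand, and none of the letters searched was in it, so it holds no capitals.
Nr1d1: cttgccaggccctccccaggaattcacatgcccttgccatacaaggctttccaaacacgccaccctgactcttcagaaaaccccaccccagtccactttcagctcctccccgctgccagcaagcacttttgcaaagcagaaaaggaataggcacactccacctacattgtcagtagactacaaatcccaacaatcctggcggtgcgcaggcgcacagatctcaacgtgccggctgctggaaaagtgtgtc
The letters searched on both strands were the E-box CACGTG, the D-boxes TTACGTAA and TTATGTAA, the ROR element core above and the cyclic AMP response element TGACGTCA. Sites further from the start or inside the gene were not searched.

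The ROR genes encode activators that oppose the REV-ERB repressors. Rora gave 43.9, 39.6 and 43.2 CPM in the OVX libraries, and 46.9, 44.4 and 44.4 CPM with royal jelly. The groups did not overlap, though the highest OVX library and the lowest OVX+RJ library differed by little, at 43.9 and 44.37 CPM. Rora thus had a log2 fold change of 0.11 (SE 0.077), with a 95% interval from -0.058 to 0.28 and an unadjusted p of 0.161 by edgeR. Left-out libraries gave values between 0.069, without OVX 2, and 0.14.

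Rorb, which in brain marks neocortical layer neurons and thalamic cells, gave 17.6, 18.6 and 18.97 CPM in the OVX libraries, and 15.6, 20.04 and 22.6 CPM with royal jelly. The 3 OVX libraries were close together, while OVX+RJ 1 was the lowest and OVX+RJ 3 the highest of all 6. Their means differed by 0.087 on the log2 scale (SE 0.12), with a 95% interval from -0.20 to 0.35. It was 0.21 without OVX+RJ 1 and -0.028 without OVX+RJ 3. Thalamic markers were 10 genes with 5 positive and 5 negative log2 fold changes. They summed to 109.9, 102 and 109 CPM for OVX 1, 2 and 3 and to 101, 103 and 123 CPM for OVX+RJ 1, 2 and 3. The sum was highest in OVX+RJ 3 and lowest in OVX+RJ 1, there by little. Slc17a6 gave 20.4 CPM in OVX+RJ 3 against 5.24 to 11.5 CPM elsewhere. Single markers did not all follow the order of the sum. Synpo2 shared the highest and the lowest library with the sum, but was higher in OVX 3 than in OVX 1, at 5.595 against 4.868 CPM. Ntng1 was highest in OVX 1, at 40.1 CPM. Neocortical markers, also 10 genes split 5 and 5, summed to between 169 and 203 CPM in OVX and between 156 and 200.1 CPM in OVX+RJ. That sum was highest in OVX 1 and lowest in OVX+RJ 2. The part of such markers in the Rorb values was not tested.

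The PAR bZIP genes, the output arm that CLOCK and BMAL1 drive, were at nearly the same mean in both groups. Dbp, whose transcript is among the strongest daily rhythms in many tissues, gave 41.0, 38.1 and 37.7 CPM in the OVX libraries, and 42.9, 38.2 and 38.3 CPM with royal jelly. OVX+RJ 1 was the highest and OVX 1 the next, and the other 4 libraries lay close together. Dbp had a log2 fold change of 0.045 (SE 0.084), with a 95% interval from -0.14 to 0.23, and of -0.024 without OVX+RJ 1. Dbp shares 539 exon bases with Sphk2 on the opposite strand, which averaged 20.03 CPM.

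Tef had the highest level of the 10 genes. The OVX libraries gave 379.9, 345 and 356 CPM, and the OVX+RJ libraries 383, 368 and 328 CPM. Both the highest and the lowest library belonged to OVX+RJ, with OVX between them. For Tef the log2 fold change was 0.0094 (SE 0.070), with a 95% interval from -0.15 to 0.16, -0.0031 with scaling by totals over all rows and -0.050 without OVX+RJ 1. With 11834 to 20082 counts per library, counting error was at most 0.919%, well under the spread between libraries.

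Hlf, the third of the family, gave 161.5, 118 and 149 CPM in the OVX libraries, and 145, 136 and 153 CPM with royal jelly. OVX held both extremes. For Hlf the log2 fold change was 0.030 (SE 0.10), with a 95% interval from -0.18 to 0.26, and -0.089 without OVX 2, the library with the lowest value, and -0.0043 without OVX+RJ 3. Across the family the 95% intervals of the fold change ran from 0.88-fold at the lowest (Hlf) to 1.20-fold at the highest (Hlf), which bounds the differences these libraries leave room for and does not show that the groups were equal.

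A window before Tef is shown because both of its 2 annotated starts had an E-box CACGTG in the 250 bases before them, the only such matches among the 14 windows of the 10 genes. The second is chr15:81811164-81811413 on the plus strand, with the E-box in capitals from 138 to 133 bases before the start. In the first window it lies from 127 to 122 bases before the start.
Tef: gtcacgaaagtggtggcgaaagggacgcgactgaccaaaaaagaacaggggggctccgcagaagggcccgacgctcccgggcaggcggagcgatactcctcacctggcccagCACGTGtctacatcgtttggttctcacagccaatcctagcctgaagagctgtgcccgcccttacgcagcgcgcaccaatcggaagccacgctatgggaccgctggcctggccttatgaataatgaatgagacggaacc
An E-box occurs in 6.02% of the windows of all genes. Hlf had the cyclic AMP response element TGACGTCA from 9 to 2 bases before its start, found in 1.55% of all windows, and no member had a D-box, found in 0.931%.

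Activator and repressor of the D-box can be set side by side within a library. OVX 1, 2 and 3 had a ratio of Dbp to Nfil3 CPM of 6.53, 6.01 and 6.53, and OVX+RJ 1, 2 and 3 of 5.33, 4.82 and 4.92. Every OVX+RJ ratio was below every OVX ratio, which follows from the Nfil3 values with Dbp close to level. The ratio of Nr1d1 to Arntl, genes that peak at opposite times of day, was 2.68, 2.41 and 2.25 for the OVX libraries, and 3.62, 2.17 and 2.41 with royal jelly. OVX+RJ 1 alone was above the OVX libraries there. The ratio of Dbp to Npas2 overlapped between the diets, with 1.90, 2.14 and 2.32 for OVX against 2.67, 2.52 and 2.05 for OVX+RJ.

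**Figure D2:**
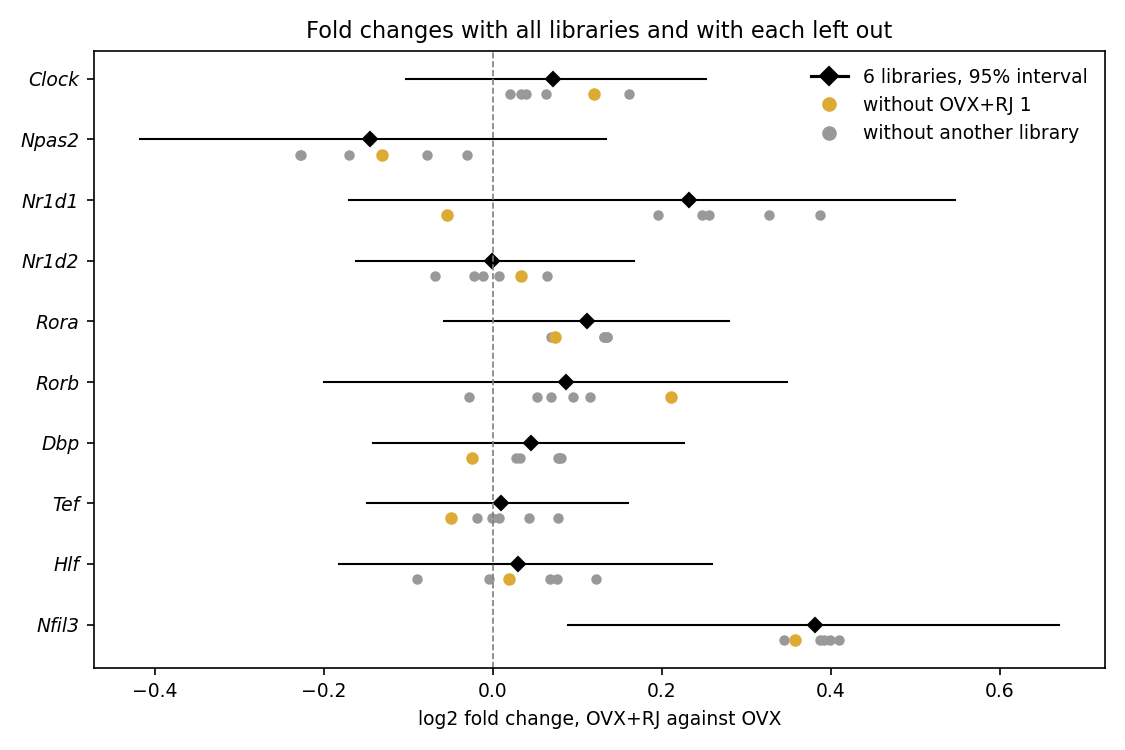
Log2 fold changes of OVX+RJ against OVX for the 10 genes (x axis). Diamonds are edgeR's values with all 6 libraries and lines are limma's 95% intervals. Dots below each line are the values with 1 library left out, yellow for OVX+RJ 1 and grey for the others. The interval of Nfil3 is the one that does not reach 0, and Nr1d1 moves from 0.23 to -0.054 when OVX+RJ 1 is left out.

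Levels between genes were compared per exon length, as CPM per kilobase of GENCODE M21 exons. Tef was highest, between 69.6 and 81.3 CPM per kilobase over the 6 libraries, and its range did not touch that of any other member. Hlf, Nr1d2, Nr1d1 and Dbp followed, with OVX means of 25.3, 22.99, 22.7 and 21.2 CPM per kilobase and ranges that overlapped between neighbours. Clock came next, between 9.71 and 11.7 CPM per kilobase, apart from Dbp above and Npas2 below it. Npas2, Rora and Nfil3 had OVX means of 4.38, 3.76 and 3.03 CPM per kilobase, with overlap between neighbours, and Rorb was lowest, between 1.65 and 2.39 CPM per kilobase. In OVX the level of Nfil3 was under that of Rora in each library, and it was so in OVX+RJ as well, at 3.98, 3.91 and 3.84 against 4.17, 3.95 and 3.95 CPM per kilobase.

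**Figure D3:**
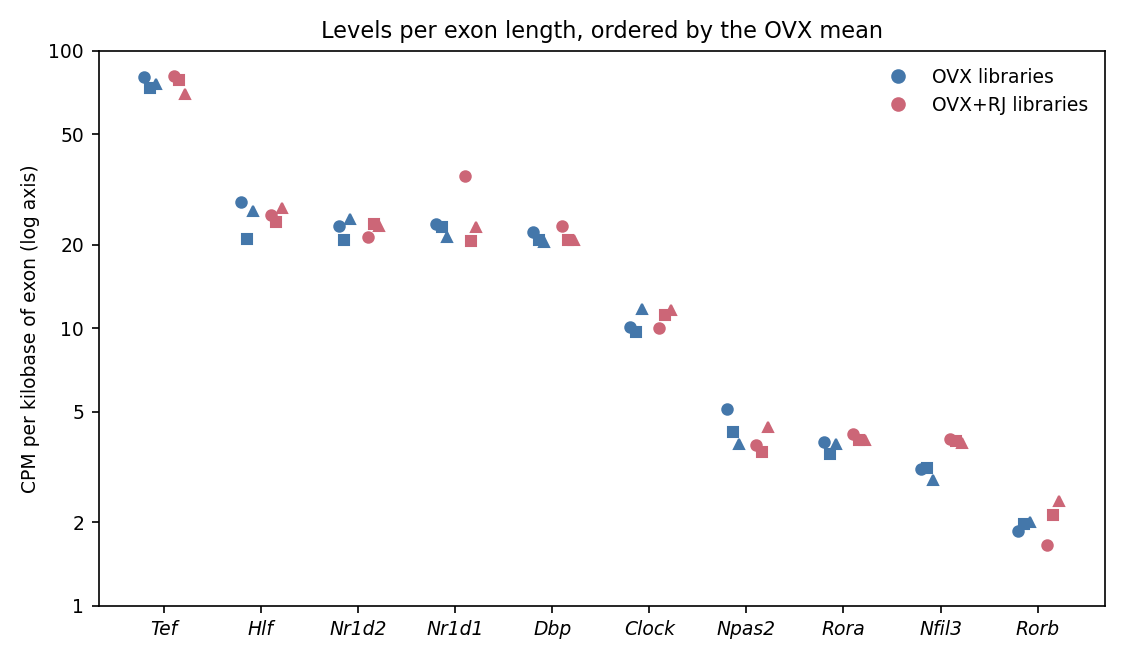
CPM per kilobase of exon (log axis) of each gene in each library, ordered by the OVX mean. Blue marks are OVX libraries and red marks OVX+RJ libraries, with circle, square and triangle for replicates 1, 2 and 3. Tef stands above all others at 69.6 to 81.3, and the genes from Hlf to Dbp overlap.

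The rest of the clock was taken from a list of 20 genes. All 20 were tested, 0 were called in either direction, 15 lay above 0 and 5 below it on the log2 fold change scale, and their median was 0.0495, or 0.031 without OVX+RJ 1. At an unadjusted p under 0.05 there were 4, all with a higher mean in OVX+RJ: Per1, Cry1, Cry2 and Bhlhe40, against 2.14% of all features in that direction. These repressor genes were also the 4 whose groups did not overlap, against 4.53%. Cry2 was at a log2 fold change of 0.26 with all libraries and of 0.13 without OVX+RJ 1. There its unadjusted p was 0.0616 by edgeR, and 3 genes of the list remained under 0.05. Without OVX 3 the edgeR p of Cry2 was 0.0569. That of Per1 was 0.0501 with edgeR's robust empirical Bayes setting, its highest among the alternatives. Cry1 gave 12.2, 12.1 and 11.2 CPM in the OVX libraries, and 18.0, 16.7 and 14.7 CPM with royal jelly, a log2 fold change of 0.49 (SE 0.12). Like Nfil3, it was above the OVX range in every OVX+RJ library, and it was at 0.41 without OVX+RJ 1. Per2, which is driven by the same E-box activators, was level, at a log2 fold change of 0.018 (SE 0.078).

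OVX+RJ 1 held the highest value of the 6 libraries at 5 of the 10 members, Nr1d1, Dbp, Tef, Nfil3 and Rora, and the lowest at Rorb. At Tef the lead was small, 383 against 379.9 CPM in OVX 1, and so it was at Nfil3, 8.06 against 7.93 CPM in OVX+RJ 2. The share of all features highest in OVX+RJ 1 was not counted. That library stood apart across all genes, and whether the count of members is particular to the clock was not tested. The same library had the highest Per1, at 117.5 CPM against 51.7 to 78.0 CPM in the other 5, and the highest Ciart, which encodes a repressor of CLOCK and BMAL1, at 22.2 CPM against 5.31 to 8.12 CPM. Ciart was at a log2 fold change of 0.81 with all libraries and of -0.036 without OVX+RJ 1, a change of sign like that of Nr1d1. Per1 was at 0.62 and 0.33. In OVX+RJ 1 the log2 ratio to the OVX mean was 0.64 for Nr1d1, 1.04 for Per1 and 1.68 for Ciart, but 0.14 for Dbp, 0.087 for Tef, -0.10 for Nr1d2 and -0.078 for Per2. There the ratio was also 0.60 for Cry1, 0.45 for Cry2 and 0.32 for Bhlhe41, each highest in that library. Per3 was at -0.37 there and lower still in OVX+RJ 3, at -0.41. Whether these values share a cause was not tested.

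**Figure D4:**
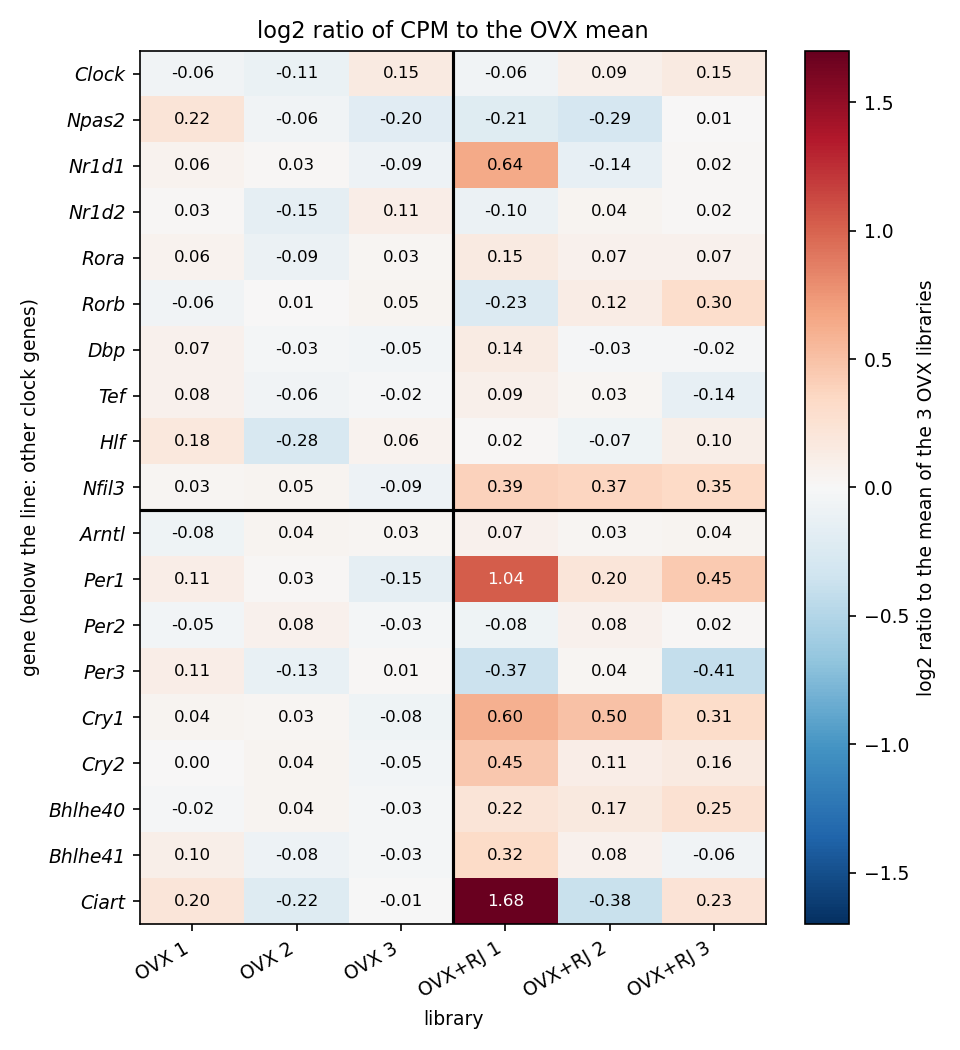
Log2 ratio of CPM to the mean of the 3 OVX libraries, with libraries in columns and genes in rows, the 10 members above the black line and other clock genes below it. Red is above and blue below the OVX mean. Nfil3 is at 0.39, 0.37 and 0.35 in the OVX+RJ libraries, while Nr1d1 and Ciart are high in OVX+RJ 1 alone, at 0.64 and 1.68.

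Genes downstream of the clock were read from a list of 13, all tested. None was called, 6 lay above 0 and 7 below it, and their median log2 fold change was -0.026. Nampt, which encodes an enzyme of NAD synthesis, was the 1 gene at an unadjusted p under 0.05 and the 1 whose groups did not overlap. Of all features, 4.05% and 10.5% met these criteria in either direction, and 2.14% and 4.53% with higher values in OVX+RJ. With 1 gene of 13, the list cannot be told apart from these shares. For Nampt the OVX libraries gave 67.2, 70.4 and 75.4 CPM, and the OVX+RJ libraries 83.0, 78.0 and 80.9 CPM. Its log2 fold change was 0.19 (SE 0.071). By edgeR its unadjusted p was 0.0919 without OVX 1, 0.0509 without OVX 2 and 0.0505 without OVX+RJ 1. It stayed under 0.05 without any other library. Pdxk, the pyridoxal kinase gene known as a target of DBP, TEF and HLF in brain, gave 142, 141 and 127 CPM without and 124, 131 and 135 CPM with royal jelly, with overlapping groups and a log2 fold change of -0.059 (SE 0.063). Usp2, a deubiquitinase gene that cycles in many tissues, was at a log2 fold change of -0.036 (SE 0.12), and OVX+RJ libraries held both its highest and its lowest value, 59.3 and 43.2 CPM.

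The genes most like a member across libraries were named for Dbp, Nr1d1 and Rorb, by Pearson's r of log2 CPM over the 6 libraries, as a description. For Nr1d1 they were Stim1, Rnf44, Sppl3, Otud1 and Zfp777, with r from 0.992 to 0.997, and from 0.868 to 0.963 without OVX+RJ 1. Stim1 had 77.7 CPM in OVX+RJ 1 against 66.2 to 69.5 CPM elsewhere. For Dbp they were H1f0, Jag2, Mtmr3, Pmaip1 and Nanos2, with r from 0.984 to 0.991, and from 0.914 to 0.964 without OVX+RJ 1. All 10 of these genes, like Nr1d1 and Dbp, were highest in OVX+RJ 1. Rnf44 was nearly flat, between 116 and 120 CPM, and Pmaip1 and Nanos2 were low, with means of 1.65 and 0.69 CPM. For Rorb they were Adora3, Pde1c, Dock1, Nlk and Asah2, with r from 0.983 to 0.995, and from 0.967 to 0.993 without OVX+RJ 1, each lowest in OVX+RJ 1 and highest in OVX+RJ 3. Extremes shared with the member follow from picking genes by likeness and are no separate result. With 6 libraries many genes come this close: r was over 0.95 for 130 genes with Nr1d1, 83 with Dbp and 34 with Rorb.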

How the data were processed

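Hippocampal poly(A) RNA libraries were made with a directional kit, per the labels' protocols. Build GRCm39 and, as tools without roles, StringTie 2.2.1, HISAT2 2.2.1, bcl2fastq 2.19 and fastp 0.23.4 are named in the submitters' processing notes. The deposited table holds expected counts per gene symbol, not scaled. How strand and multi-mapping reads were handled, and the annotation release, are not given in the sources. Values not whole, at 51 features, were rounded, upwards where midway. A row named null, with 4 to 6 counts per library (1.05e-05% of all), was left out.

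Each column's library name, found in the labels, gave its group. The test was that of edgeR 4.0.16 in R 4.3.3 (filterByExpr, TMM factors between 0.978 and 1.01, glmQLFit and glmQLFTest, Benjamini-Hochberg adjustment over all 18629 features tested, threshold 0.05). Standard errors and 95% intervals are from limma 3.58.1, fitted to log2 CPM (prior count 2). CPM per library use totals over all rows, without TMM. Exon lengths and overlaps come from GENCODE M21 on GRCm38, by symbol. With 3 libraries a group, the smallest two-sided p of an exact permutation test is 0.1, so none is given.

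The members, the lists of genes and the rule for naming genes were chosen with earlier results of these data known. The rule names the 10 members, listed clock and output genes at an unadjusted p under 0.05 or set beforehand, and the 5 genes most like Dbp, Nr1d1 and Rorb, leaving out predicted genes and pseudogenes. Ciart, Thra, Sphk2 and the clock genes that the plot of libraries adds were named after their values were seen. Alternatives were DESeq2 1.42.0, limma-voom, other scalings, filters and edgeR settings, the replicate number as a block, and each library left out.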

Additional observations from a re-analysis of the deposited data

How the results depend on the processing

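No member and no gene of the list of 20 other clock genes was called at an adjusted p under 0.05 under any of the 16 alternatives. Over all genes the edgeR test called 0, DESeq2 called 13, robust empirical Bayes 3 and the replicate block 1, and left-out libraries gave between 0 and 8. Clock, Npas2, Nfil3 and Rora kept their direction in all 16, and the unadjusted p of Nfil3 ran from 0.0152 to 0.0538, the highest without OVX 3. The log2 fold change of Nr1d2 was -0.00025 and turned to 0.0012 with DESeq2 size factors, 0.00015 with upper quartile factors, 0.0014 in DESeq2, 0.0089 in limma-voom, 0.0023 in the bias-adjusted fit, 0.0030 with a mean of at least 50 counts and 0.0028 with the replicate block. Tef turned to -0.0031 with totals over all rows. Left-out libraries gave ranges from -0.054 to 0.39 for Nr1d1, from -0.068 to 0.065 for Nr1d2, from -0.024 to 0.081 for Dbp, from -0.050 to 0.077 for Tef, from -0.089 to 0.12 for Hlf and from -0.028 to 0.21 for Rorb. The cause of these turns was not tested. Members at an unadjusted p under 0.05 numbered 0 without OVX 3, where 3.39% of all features were under it, and 2 without OVX+RJ 2, where Nr1d1 joined Nfil3. Other clock genes numbered 7 without OVX+RJ 2, where the share over all features was 5.88%, against 4.05% with all libraries.

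The replicate numbers did not pair the libraries: same-numbered libraries had correlations of their deviations from the group means of 0.046, -0.0024 and 0.0031, and not every library correlated best with its own number. The block changed no call among the members. Counts of Nfil3, from 218 to 369, limit the precision of its values.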
